A study of Homo sapiens with 18 samples.

Results

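The tables of this RNA-sequencing study of lung cancer cell lines hold 2 kinds of rows, gene rows and transcript rows, and the transcript rows are described here. They are all rows whose identifier is an Ensembl transcript identifier (ENST): 34061 of 50485 rows in the H460 table, 38163 of 56303 in the H2023 table and 39613 of 56523 in the ABC-1 table. In all, 51075 different transcripts have a row in at least 1 table and 25023 have a row in all 3. H460 is labelled a large cell lung carcinoma line and H2023 a squamous cell lung carcinoma line, and the series describes both as having activated NRF2, the transcription factor of the antioxidant response. ABC-1 is labelled a lung adenocarcinoma line and serves as the line with wild-type NRF2 signalling. Each line was treated for 24 h with DMSO, the solvent control, or with CCS1477 (inobrodib), an inhibitor of the bromodomains of the coactivators p300 and CBP, with 3 libraries per line and treatment and 18 in all. The sample descriptions give the concentration as 5 µM, whereas the series text gives it in mM. No genetic change separates the groups of a line, and nothing in the labels says that the libraries came from separate cultures, so each p-value measures the spread between these libraries only.

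Most human genes give several transcripts that differ in their start, their splicing or their end. Transcripts annotated as retained intron keep an intron that other transcripts of the gene splice out, and many of them stay in the nucleus. Nonsense-mediated decay (NMD) is the cytoplasmic pathway that degrades transcripts with a premature stop codon, and the annotation marks transcripts whose reading frame has that form. Many genes for splicing factors, above all those of the serine/arginine-rich (SR) proteins, hold back or destroy part of their own RNA through retained introns and NMD exons. Replication-dependent histone genes are a case apart: they have no introns, and their usual mRNA ends just after a short stem-loop without a poly(A) tail, whereas longer transcripts of the same genes read on past the stem-loop, can be spliced, and can end at an ordinary polyadenylation signal (AATAAA). Acetylation of histones by p300 and CBP marks active enhancers and promoters, and NRF2 recruits CBP to its target genes.

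The following sequences are printed 5′ to 3′ because the results turn on what these transcripts hold beyond the usual mRNA of their gene. In the histone lines the capitals mark the bases that match the stem-loop pattern (a first strand GGNNCN, a loop TTTN and a second strand AGNNCC, joined without gaps), or the last AATAAA. The rows are the NMD-type transcripts HIST2H4A-203 (chr1:149832670-149834631, plus strand), HIST1H4H-203 (chr6:26277609-26285638, minus strand) and HIST1H2AC-201 (chr6:26124145-26139116, plus strand), beside HIST1H4H-201, a single-exon transcript in the annotation's basic set that ends 18 bases after the same stem-loop. In the intron lines the capitals mark the GT and AG that bound the retained intron of CCNL1-204 (intron at chr3:157152242-157153035, minus strand), RBM39-223 (chr20:35739018-35740823, minus strand) and VMP1-216 (chr17:59838398-59839767, plus strand). In the miRNA line they mark the seed of miR-21-5p, whose hairpin lies in the last exon of VMP1. All coordinates are of GRCh38, with transcripts of GENCODE 29 and the miRNA of RefSeq.
HIST2H4A-203 stem-loop: cccaaaGGCCCTTTTTAGGGCCgaccac
HIST2H4A-203 polyadenylation signal: tgtcggactctgAATAAAgagcagaatgat
HIST1H4H-203 stem-loop: accaaaGGCCCTTTTCAGGGCCgcccac
HIST1H4H-203 polyadenylation signal: gaattgtgaaaaAATAAAtgtttaagcca
HIST1H2AC-201 stem-loop: cccaaaGGCTCTTTTCAGAGCCccccta
HIST1H2AC-201 polyadenylation signal: ctggcatgaggtAATAAAaggtaatgcaaa
HIST1H4H-201 stem-loop: accaaaGGCCCTTTTCAGGGCCgcccac
CCNL1-204 donor side: tcctcataagGTgagttgtagagtacagaa
CCNL1-204 acceptor side: ttttttcccttgtccttcAGatcattgtta
RBM39-223 donor side: ttacaagaagGTgagaaaaaacatgtcggt
RBM39-223 acceptor side: cttctatcaaccctgcttAGgatgagaaca
VMP1-216 donor side: cacaccacagGTaagactttaatccggttt
VMP1-216 acceptor side: ttctgcatttatttctacAGggagaaaact
hsa-miR-21-5p mature miRNA: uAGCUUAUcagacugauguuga

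The stem-loop of HIST2H4A-203 is followed by 564 more bases, that of HIST1H4H-203 by 1655 and that of HIST1H2AC-201 by 1128. Of 206534 annotated transcripts, 269 (0.130%) hold the stem-loop pattern on the transcribed strand, and 26.6% have an AATAAA within their last 100 bases. The basic set itself holds a long transcript of HIST1H2AC, HIST1H2AC-202, with the same stem-loop. The motif counts are matches of letters and show neither processing nor use of a site.

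The transcript rows are mostly alternative transcripts. Between 78.0% and 79.4% of them are in GENCODE 29, and of these 2.23% to 2.59% belong to its basic set, against 49.4% of all 206601 annotated transcripts. Retained-intron transcripts make up 26.3% (H460), 26.4% (H2023) and 29.04% (ABC-1) of the rows. The gene with most rows is SPG7, with 36 to 40. Recovered reads over all rows were 14483979 to 33568180 per library, of which 9.19% to 10.7% lay on transcript rows. Levels are given in CPM, a row's reads times 1000000 over the reads of all rows of the library. The filter, at least 1 CPM in at least 3 of a line's 6 libraries, was passed by 13733 (40.3%), 13860 (36.3%) and 15510 (39.2%) transcript rows in H460, H2023 and ABC-1.

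Counts of a transcript row were less repeatable than those of a gene row of like depth. At 100 to 300 reads, the median coefficient of variation between DMSO replicates was 14.1% to 14.8% for transcript rows and 7.74% to 8.07% for gene rows. A row with 0 reads in 1 replicate and at least 100 in another of the same group was seen for 4.02%, 2.25% and 1.96% of tested transcript rows in H460, H2023 and ABC-1, against at most 0.133% of gene rows. How reads were assigned to transcripts is not given in the sources used here. As a check of the labels on gene rows, KRT8, KRT18 and KRT19 were at 53.7 CPM or more in every library, EPCAM was at 0.262 to 0.938 CPM in H460, and no blood or endothelial marker reached 1 CPM in all libraries of a line. Of the fibroblast markers, COL1A1 was at 3.70 to 8.95 CPM in H460, 5.16 to 7.82 in H2023 and 6.84 to 23.6 in ABC-1. PDGFRB was at 0.536 to 2.93 CPM in H460 and had no row in the other lines, and COL1A2 had no row in any line. The squamous marker TP63 was at 0.242 to 2.14 CPM in H2023, and the tables used here hold no row for KRT5 and SOX2 in that line. In ABC-1 the adenocarcinoma marker NKX2-1 was at 0.343 to 1.66 CPM and the squamous marker SOX2 at 64.96 to 154 CPM. The squamous marker TP63 was at 0 to 1.92 CPM there, and KRT5 had no row. The squamous markers of H2023 and, in ABC-1, NKX2-1 and SOX2 thus go against the labels, while TP63 and KRT5 in ABC-1 do not. The library of H460 CCS1477 replicate 1 stood apart, with 0.795% of reads on mitochondrial genes against 1.77% to 2.06% in the other H460 libraries.

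To ask whether treated cells shift transcript rows, CCS1477 was compared with DMSO within each line by limma-trend on the deposited log2 values, with p-values adjusted (Benjamini-Hochberg) over all gene and transcript rows past the filter. A row that passed an adjusted p of 0.05 is said to have risen or fallen. In H460, 904 transcript rows rose (6.58%) and 1143 fell (8.32%), together 14.9% of 13733. In H2023, 903 rose (6.52%) and 984 fell (7.1%), together 13.6% of 13860. In ABC-1, 1216 rose (7.84%) and 1508 fell (9.72%), together 17.6% of 15510. The corresponding shares of gene rows were 47.6%, 51.7% and 58.6%, and of all rows 31.1%, 33.1% and 36.7%. At a like depth, a mean of 100 to 300 reads, 20.8%, 25.97% and 30.5% of transcript rows passed against 43.7%, 50.3% and 56.04% of gene rows. The balance of rises and falls was not stable. With plain library totals, which move the median of all rows by 0.05 to 0.07 on the log2 scale, 1152 rose and 942 fell in H460, 1074 and 873 in H2023, and 1454 and 1341 in ABC-1. With any 1 DMSO library left out, rises also outnumbered falls, at 638 to 662 against 533 to 569 in H460, 749 to 769 against 558 to 571 in H2023, and 1082 to 1129 against 850 to 900 in ABC-1. With any 1 CCS1477 library left out falls outnumbered rises, at 956 to 1118 against 463 to 634, 875 to 893 against 497 to 531, and 1224 to 1278 against 660 to 685. In H460 the library that stood apart gave the upper end of both ranges, 634 rises and 1118 falls without it. The filter still asked for 1 CPM in 3 libraries, so these fits did not test the same rows. Without a CCS1477 library, rows past 1 CPM only with CCS1477 dropped out, and likewise for DMSO. In H460, 1898 of the 2047 calls were tested in the former fits and 1830 in the latter. The part of this filter in the turned balance was not tested. Fitting transcript rows alone, without the gene rows, left 556, 429 and 1082 calls.

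By annotated type, protein-coding alternative transcripts gave 175 up (6.70%) and 269 down (10.3%) of 2611 in H460. They gave 150 (5.91%) and 223 (8.79%) of 2538 in H2023, and 194 (8.01%) and 286 (11.8%) of 2422 in ABC-1. Processed transcripts, which have no annotated reading frame, gave 128 up (5.93%) and 222 down (10.3%) of 2160 in H460. They gave 150 (6.86%) and 202 (9.24%) of 2187 in H2023, and 197 (8.42%) and 260 (11.1%) of 2341 in ABC-1. NMD-type rows gave 134 up (5.80%) and 183 down (7.93%) of 2309 in H460. They gave 154 (6.53%) and 174 (7.38%) of 2357 in H2023, and 205 (8.85%) and 235 (10.1%) of 2317 in ABC-1. Over all transcript rows 6.58%, 6.52% and 7.84% rose and 8.32%, 7.1% and 9.72% fell, so that most of these shares lie near those of all rows. Among retained-intron rows, 272 rose and 225 fell of 3682 in H460, 256 and 209 of 3742 in H2023, and 381 and 414 of 4908 in ABC-1. The share of retained-intron rows that rose, 7.39%, 6.84% and 7.76%, was close to that of all transcript rows, 6.58%, 6.52% and 7.84%. With library totals, 355 retained-intron rows rose and 178 fell in H460, 320 and 187 in H2023, and 463 and 359 in ABC-1, where the balance thus turned. With any 1 CCS1477 library left out, fewer retained-intron rows rose than fell, 128 to 179 against 178 to 219 in H460, 137 to 148 against 176 to 188 in H2023, and 185 to 191 against 317 to 322 in ABC-1. With any 1 DMSO library left out more rose, 161 to 184 against 103 to 110, 194 to 219 against 121 to 128, and 307 to 316 against 248 to 257. The limit that the filter sets on fits with a library left out holds here too. Long noncoding rows gave 17 up and 45 down of 273 in H460, where falls stayed ahead with library totals (17 and 39) and with any library left out (8 to 15 and 19 to 49). In H2023 they gave 25 (8.25%) and 30 (9.90%) of 303, and in ABC-1 26 (8.93%) and 28 (9.62%) of 291.

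**Figure D1:**
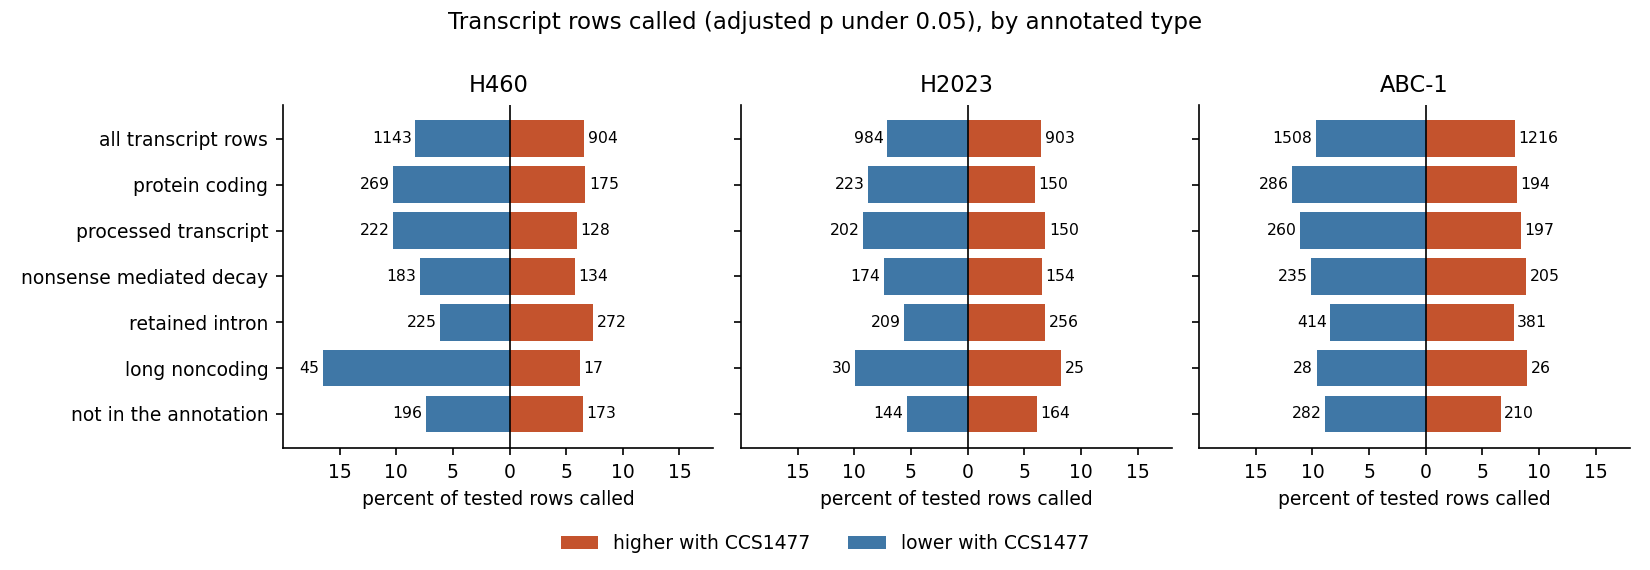
Percent of tested transcript rows of each annotated type that fell (left of 0) or rose (right of 0) with CCS1477, per line, at an adjusted p of 0.05. Long noncoding rows of H460 reach furthest to the left of the larger types, with 16.5% fallen against 8.32% of all transcript rows, while the balance of the types as a whole depends on the scaling.

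Most called transcript rows moved with their gene row. The parent gene row was also tested for 1677 called rows of H460, 1556 of H2023 and 2214 of ABC-1, and 82.0%, 84.4% and 89.5% of these had a change of the same sign as the gene row. The parent was itself called in the opposite direction for 98, 108 and 114 of them. In H460, 53 rows rose while the gene row fell and 45 fell while it rose; in H2023 these were 70 and 38, and in ABC-1 66 and 48.

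**Figure D2:**
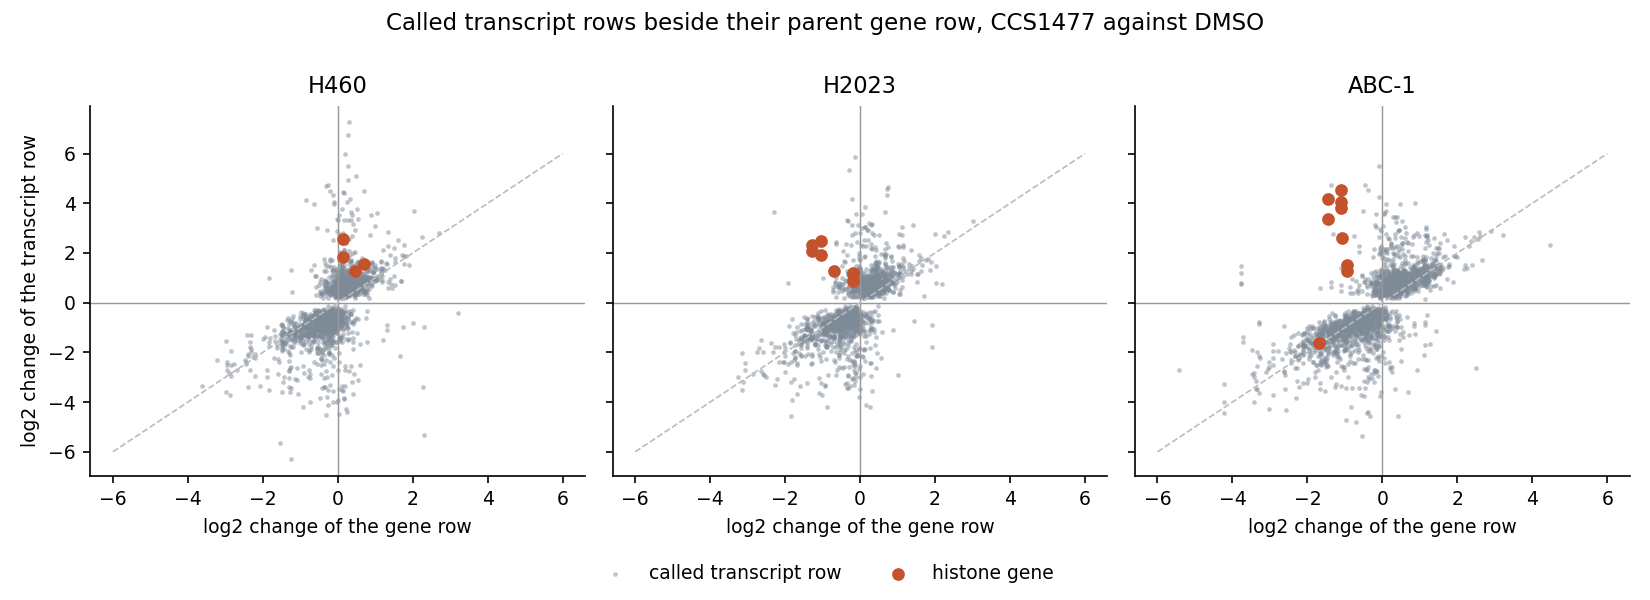
Log2 change (CCS1477 minus DMSO) of each called transcript row against that of its parent gene row, 1 panel per line. The points follow the diagonal, and the 98 (H460), 108 (H2023) and 114 (ABC-1) rows whose gene row was called the other way lie to the upper left and lower right of the origin.

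The shift of a row was taken as the change in log2 of its reads over the reads of its gene row, with 0.5 read added to each, and tested in the same way over all rows that have a tested gene row. The shift passed for 11 rows upward (0.0999%) and 17 downward (0.154%) of 11009 in H460, together 0.254%. In H2023 it passed for 8 (0.0724%) and 6 (0.0543%) of 11050, together 0.127%, and in ABC-1 for 16 (0.131%) and 11 (0.0901%) of 12205, together 0.221%. An unadjusted p under 0.05 was reached by 1654, 1326 and 1359 rows. Of these, 862 were up and 792 down in H460, 809 and 517 in H2023, and 773 and 586 in ABC-1. Among the 3601, 3645 and 4792 retained-intron rows with a tested shift they were 334 up and 184 down, 292 and 141, and 313 and 178. The adjusted calls were fragile: with 1 library left out, 0 to 4 shifts passed in H460, 0 to 12 in H2023 and 6 to 20 in ABC-1.

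In several histone genes, long, spliced NMD-type transcripts rose while the gene rows fell in H2023 and ABC-1. HIST2H4A (now H4C14) codes for histone H4, a core protein of the nucleosome. The level of HIST2H4A-203 in ABC-1 was 1.15, 1.98 and 1.31 CPM with DMSO and 39.1, 38.9 and 43.2 CPM with CCS1477 (log2 change 4.52, SE 0.19, adjusted p = 5.33e-06, 27.3-fold on the CPM scale). In H2023 it was 1.40, 2.96 and 1.88 against 11.7, 12.3 and 13.9 CPM (log2 change 2.47, SE 0.25, adjusted p = 0.000391). In H460 it was 0.938, 1.13 and 1.49 against 9.98, 6.72 and 7.46 CPM (log2 change 2.57, SE 0.22, adjusted p = 0.000451). All treated libraries lay above all DMSO libraries in each line. The gene row fell from 451 ± 23.02 to 218 ± 18.7 CPM (mean ± SD, n = 3) in ABC-1 (log2 change -1.11, SE 0.07, adjusted p = 4.36e-05). It also fell from 338 ± 32.3 to 171 ± 4.49 CPM in H2023 (log2 change -1.03, SE 0.07, adjusted p = 5.21e-05), and went from 750.2 ± 22.97 to 873 ± 60.6 CPM in H460 (log2 change 0.14, SE 0.06, adjusted p = 0.0995). Its shift passed in ABC-1 (shift 5.83, SE 0.22, adjusted p = 0.000651). It also passed in H2023 (shift 3.63, SE 0.33, adjusted p = 0.0296) and H460 (shift 2.53, SE 0.22, adjusted p = 0.0261). The ABC-1 call held with any library left out (adjusted p up to 0.01003). It was lost in H460 whichever library was left out (adjusted p up to 0.136). In H2023 it was lost without DMSO replicate 1, DMSO replicate 3, CCS1477 replicate 1, CCS1477 replicate 2 or CCS1477 replicate 3 (adjusted p up to 0.166).

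HIST1H4H (H4C8), another histone H4 gene, showed the same opposition in H2023 and ABC-1. HIST1H4H-203 stood at 1.47, 1.28 and 0.759 CPM with DMSO and 15.2, 12.1 and 16.4 CPM with CCS1477 in ABC-1 (log2 change 3.35, SE 0.24, adjusted p = 5.76e-05). In H2023 the levels were 0.897, 1.15 and 0.910 and 5.73, 6.14 and 6.55 CPM (log2 change 2.33, SE 0.18, adjusted p = 0.000114). In H460 they were 2.33, 1.46 and 1.52 and 2.59, 1.57 and 3.67 CPM, where the groups overlapped (log2 change 0.41, SE 0.34, adjusted p = 0.407). The gene row fell in ABC-1 (log2 change -1.44, SE 0.08, adjusted p = 1.84e-05) and H2023 (log2 change -1.28, SE 0.05, adjusted p = 1.29e-05). The shift passed in ABC-1 (shift 5.03, SE 0.27, adjusted p = 0.00272) and in H2023 (shift 3.84, SE 0.22, adjusted p = 0.0087). The H2023 call was lost without CCS1477 replicate 1, CCS1477 replicate 2 or CCS1477 replicate 3 (adjusted p up to 0.0994). HIST1H4H-202 rose in ABC-1 from 0.613 ± 0.145 to 15.9 ± 1.06 CPM (log2 change 4.18, SE 0.18, adjusted p = 6.12e-06) and in H2023 from 1.15 ± 0.567 to 5.44 ± 0.575 CPM (log2 change 2.08, SE 0.35, adjusted p = 0.00413). Its annotated sequence is the same as that of HIST1H4H-204, so these reads cannot be assigned to 1 of the 2 by sequence.

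HIST1H2AC (H2AC6) codes for histone H2A. HIST1H2AC-201 rose in all 3 lines. In ABC-1 it was at 12.1, 9.65 and 10.98 CPM with DMSO and 68.3, 69.1 and 72.6 CPM with CCS1477 (log2 change 2.60, SE 0.08, adjusted p = 1.63e-06). In H2023 it was at 15.1, 14.02 and 13.5 and 34.5, 37.3 and 35.7 CPM (log2 change 1.27, SE 0.06, adjusted p = 2.3e-05), and in H460 at 6.12, 7.70 and 7.32 and 17.1, 17.3 and 19.8 CPM (log2 change 1.27, SE 0.11, adjusted p = 0.000509). No treated library overlapped a DMSO library. HIST1H2AC-201 has the same start, number of exons and stem-loop position as the protein-coding HIST1H2AC-202 of the basic set. Their lengths are 1668 and 1654 bases, so few reads could tell the 2 apart. The gene row fell in ABC-1 (log2 change -1.08, SE 0.04, adjusted p = 3.26e-06) and H2023 (log2 change -0.69, SE 0.07, adjusted p = 0.00037), while in H460 its log2 change was 0.47 (adjusted p = 0.0595). The shift passed in ABC-1 (shift 3.71, SE 0.13, adjusted p = 0.000651) and H2023 (shift 1.97, SE 0.10, adjusted p = 0.00833). The H2023 call was lost without CCS1477 replicate 1, CCS1477 replicate 2 or CCS1477 replicate 3 (adjusted p up to 0.0994). HIST4H4-201 (H4C16) rose from 1.76 to 5.65 CPM in ABC-1 (log2 change 1.51, SE 0.20, adjusted p = 0.00118). It rose from 3.46 to 8.26 CPM in H2023 (log2 change 1.15, SE 0.11, adjusted p = 0.00037) and from 0.814 to 2.80 CPM in H460 (log2 change 1.56, SE 0.20, adjusted p = 0.00191). Its gene row fell in ABC-1 (log2 change -0.94, SE 0.06, adjusted p = 3.58e-05) and rose in H460 (log2 change 0.70, SE 0.07, adjusted p = 0.000622). The shift passed in ABC-1 and H2023 and was lost in both whichever library was left out (adjusted p up to 0.102 and 0.182). This transcript holds the stem-loop, 1510 bases before its end, and no AATAAA in its last 100 bases.

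HIST2H4B-202 (H4C15), of the neighbouring and near-identical H4 copy, rose from 10.7, 15.8 and 17.6 to 119, 139 and 130.1 CPM in ABC-1 (log2 change 3.08, SE 0.18, adjusted p = 2.11e-05). The rise was from 17.4 ± 5.19 to 72.9 ± 4.67 CPM in H2023 (log2 change 2.05, SE 0.21, adjusted p = 0.000391) and from 9.25 ± 2.26 to 37.95 ± 5.37 CPM in H460 (log2 change 1.97, SE 0.19, adjusted p = 0.000672). HIST2H4A-204 rose as well, from 10.0, 4.28 and 0 to 42.4, 29.7 and 48.1 CPM in ABC-1 (log2 change 4.06, SE 1.26, adjusted p = 0.0438), and from 9.59 to 36.6 CPM in H2023 and 6.23 to 23.8 CPM in H460. Its ABC-1 call was lost without DMSO replicate 2, CCS1477 replicate 1, CCS1477 replicate 2 or CCS1477 replicate 3 (adjusted p up to 0.105). HIST2H4A-202 was read in ABC-1 at 0, 0.128 and 0 CPM with DMSO and 3.60, 4.92 and 3.57 CPM with CCS1477, and its sequence is identical to that of HIST2H4B-203. Reads of these H4 copies, which also lie opposite HIST2H3A and HIST2H3C, may be split between them. The exception was HIST1H2BN-202 (H2BC15, histone H2B), which fell with its gene row in ABC-1, from 4.52, 4.15 and 3.38 to 1.09, 1.60 and 0.940 CPM (log2 change -1.61, SE 0.24, adjusted p = 0.00191).

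Over all clustered histone genes, a group looked at after earlier results were known, 5 of 9 tested transcript rows rose and 0 fell in H460, 9 of 11 rose and 0 fell in H2023, and 9 of 10 rose and 1 fell in ABC-1. The share of all transcript rows that rose was 6.58%, 6.52% and 7.84%. At least HIST1H4H-202 and HIST2H4A-202 in ABC-1 and HIST4H4-201 in H460 passed the filter only through CCS1477 libraries. Rows that pass in this way can be counted as rises but not as falls. Of the tested histone gene rows, 4 rose and 13 fell of 55 in H460, 3 rose and 49 fell of 55 in H2023, and 1 rose and 56 fell of 58 in ABC-1, with median log2 changes of -0.11, -1.24 and -1.70. The median of the transcript rows was 1.27, 1.27 and 3.22. In reads, transcript rows took up 0.393% ± 0.0047 of all histone reads with DMSO and 1.02% ± 0.055 with CCS1477 in H460 (SD, n = 3). They took up 0.905% ± 0.015 and 6.33% ± 0.24 in H2023, and 0.440% ± 0.024 and 8.59% ± 0.71 in ABC-1. These groups did not overlap in any line (exact two-sided permutation p = 0.1, the smallest that 3 against 3 allows). Histone gene rows took up 0.619% of all reads with DMSO and 0.278% with CCS1477 in H2023, 0.914% and 0.347% in ABC-1, and 1.054% and 1.06% in H460 (exact permutation p = 0.1, 0.1 and 1). In bulk RNA, fewer cells that express a gene and less RNA per cell cannot be told apart.

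**Figure D3:**
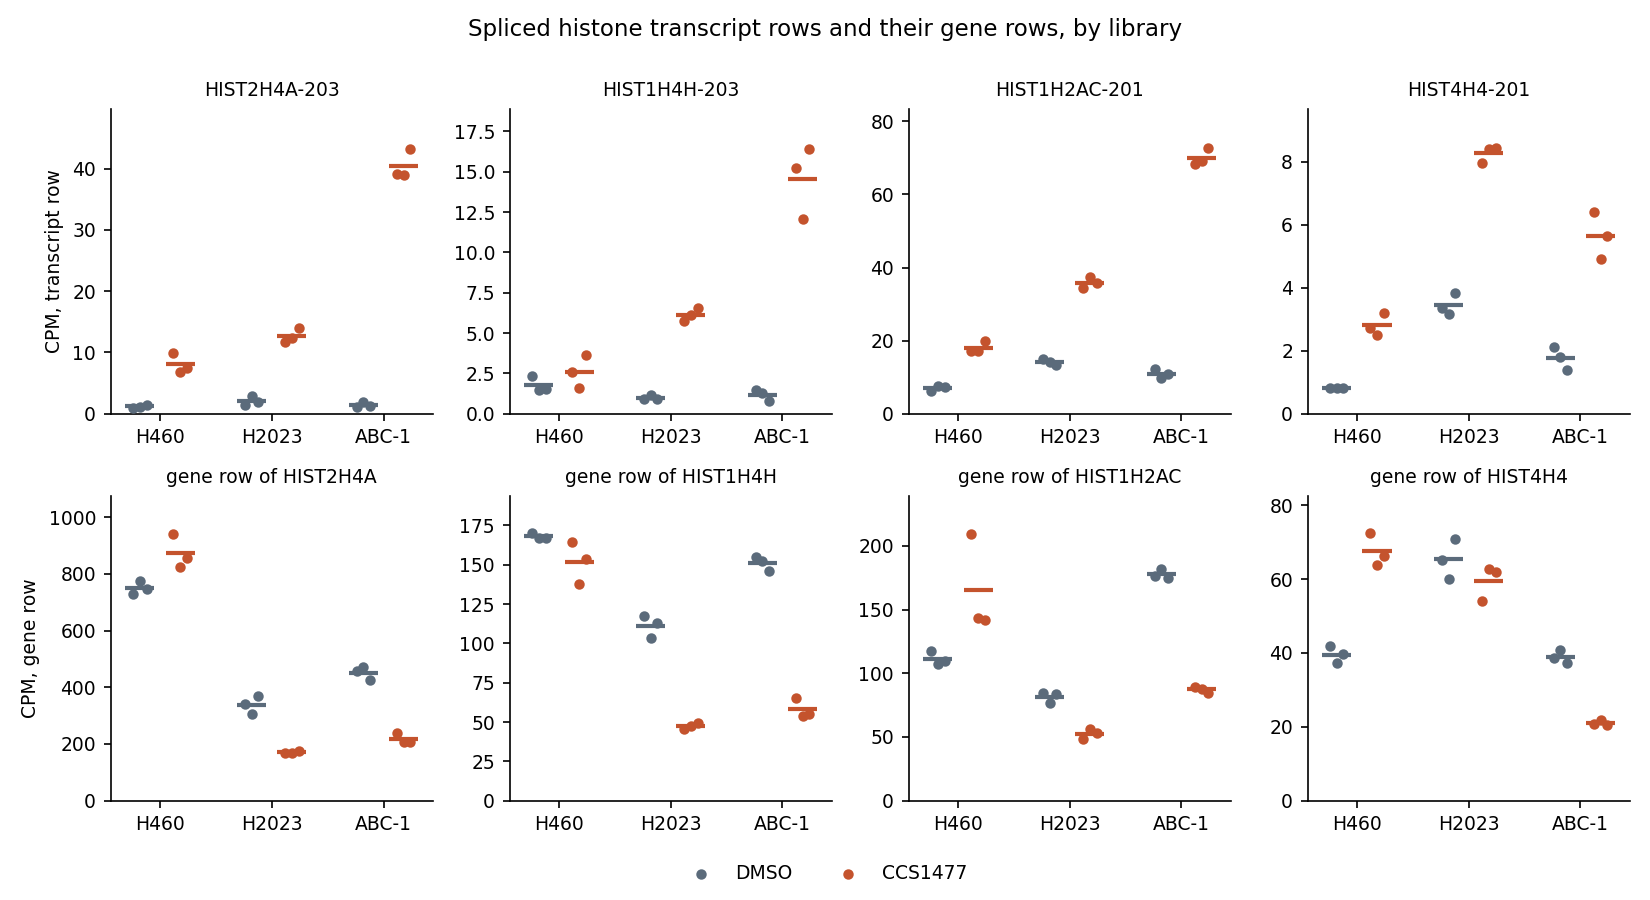
CPM of histone transcript rows (top) and of their gene rows (bottom) in each library, by line and treatment; points are libraries and bars the means of 3. The HIST2H4A-203 row with CCS1477 is above every DMSO library in each line, at 39.1, 38.9 and 43.2 CPM in ABC-1, while its gene row fell in H2023 and ABC-1.

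Retained-intron rows as a class took a slightly larger part of the reads of annotated transcript rows in H460 and H2023. In H460 the share was 28.3, 28.3 and 28.5% with DMSO and 29.6, 29.03 and 29.4% with CCS1477. In H2023 it was 27.1, 26.2 and 27.1% and 28.2, 27.96 and 28.6%, and in ABC-1 32.6, 31.8 and 32.6% and 31.7, 31.6 and 31.7%. The treated libraries were thus higher in H460 and H2023 and lower in ABC-1, with no overlap in any line (exact permutation p = 0.1 each). The differences of means were 0.963, 1.46 and -0.665 percentage points. Without the 20 rows with most reads, the ABC-1 difference turned to 0.615, and as a share of all reads it was 0.0708, so its direction depends on a few abundant rows and on the denominator. Rows of MALAT1, an abundant nuclear RNA, went from a mean of 4.25% to 7.15% of the reads of annotated transcript rows in ABC-1. Transcript rows of every type together took up 9.60% of all reads with DMSO and 9.73% with CCS1477 in H460 (exact permutation p = 0.3). The shares were 9.27% and 9.49% in H2023, and 10.1% and 10.6% in ABC-1 (exact permutation p = 0.1 each).

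Of the 13571 retained-intron transcripts with a row, 4608 (34.0%) contain a whole intron of a basic-set transcript of the gene, and 95.6% of these introns begin with GT and end with AG. The share that contains one was 47.4% among rows that rose and 36.9% among rows that fell in H460, 52.3% and 36.4% in H2023, and 50.7% and 38.2% in ABC-1. The median GC content of the introns was 45.2% in rows that rose and 53.8% in rows that fell in H460, 45.0% and 54.7% in H2023, and 49.6% and 49.8% in ABC-1. In rows not called it was 51.1%, 51.2% and 49.8% in H460, H2023 and ABC-1. These are descriptions of the tested rows, and the differences were not tested.

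Retained-intron rows of SR protein genes rose more often than they fell. In the list of SR proteins, their kinases and regulators of detained introns (34 genes), 11 retained-intron rows rose and 1 fell of 62 in H460. In H2023 12 rose and 0 fell of 62, and in ABC-1 11 rose and 2 fell of 80. Of the gene rows of the same list, 10 rose and 7 fell, 5 and 13, and 7 and 11 of 34. In the list of hnRNP proteins and other splicing regulators (33 genes), 9 retained-intron rows rose and 2 fell of 51 in H460, 8 and 0 of 43 in H2023, and 8 and 6 of 56 in ABC-1. The gene rows of that list gave 3 and 8 of 31, 2 and 14 of 33, and 0 and 23 of 33. Over all retained-intron rows 7.39%, 6.84% and 7.76% rose. Retained-intron rows of the core spliceosome list (32 genes) gave 3 and 2 of 34, 2 and 0 of 32, and 1 and 3 of 39. The median log2 change of all transcript rows was 0.13, 0.23 and 0.05 in the SR list and 0.08, 0.16 and -0.08 in the hnRNP list, where 11 rose and 19 fell of 121 in ABC-1, against -0.01, 0.01 and -0.01 over all transcript rows tested. With 1 library left out, 5 to 10, 6 to 11 and 6 to 10 retained-intron rows of the SR list rose and 1 to 2, 0 to 1 and 2 to 3 fell, and with library totals 19, 15 and 15 rose and 1, 0 and 2 fell.

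In reads, retained-intron rows took up 9.60% ± 0.15 to 10.2% ± 0.14 of the gene and transcript reads of the SR list in H460, 9.12% ± 0.32 to 10.6% ± 0.13 in H2023 and 16.7% ± 0.76 to 18.8% ± 0.29 in ABC-1 (SD, n = 3, DMSO to CCS1477). For the hnRNP list the shares were 5.59% ± 0.1 to 6.06% ± 0.11, 5.75% ± 0.27 to 6.75% ± 0.23 and 7.61% ± 0.14 to 9.11% ± 0.2. Neither list's groups overlapped in any line (exact permutation p = 0.1 each). Over all genes with a name, the share was 2.26% with DMSO and 2.38% with CCS1477 in H460, 2.07% and 2.24% in H2023, and 2.72% and 2.79% in ABC-1, where the groups overlapped (exact permutation p = 0.2). NMD-type rows went in both directions. In the SR list their share was 8.08% and 7.80% in H460 (exact permutation p = 0.5), and it was lower with CCS1477 in H2023, at 6.91% and 6.33%, and in ABC-1, at 6.74% and 6.04% (exact permutation p = 0.1 each). In the hnRNP list it was 8.21% and 8.47% in H460 (exact permutation p = 0.4), higher with CCS1477 in H2023, at 6.26% and 6.81%, and lower in ABC-1, at 8.42% and 6.99% (exact permutation p = 0.1 each).

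**Figure D4:**
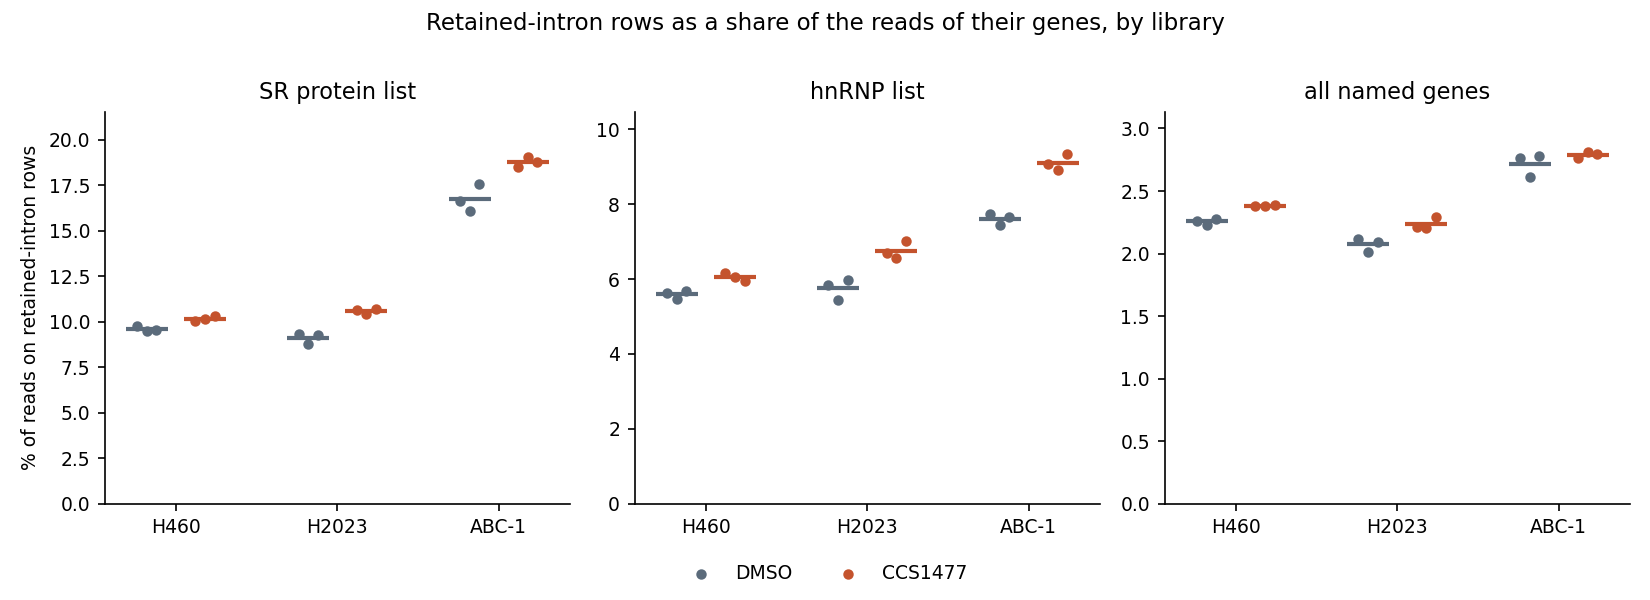
Percent of the reads of a gene list (gene plus transcript rows) that lie on retained-intron rows, per library, for the SR list, the hnRNP list and all named genes. In the first 2 lists the 3 CCS1477 libraries of each line lie above its 3 DMSO libraries, and over all named genes the ABC-1 groups overlap.

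CCNL1-204 keeps an intron of the gene for cyclin L1, which associates with splicing-linked kinases. It went from 37.01, 36.99 and 42.6 to 54.7, 59.5 and 58.8 CPM in ABC-1 (log2 change 0.51, SE 0.06, adjusted p = 0.000799) and from 13.2, 11.9 and 11.1 to 18.2, 19.7 and 19.9 CPM in H2023 (log2 change 0.62, SE 0.08, adjusted p = 0.00145). In H460 the values were 6.27, 5.70 and 5.45 and 7.18, 7.77 and 9.14 CPM, which did not overlap but missed the threshold (log2 change 0.38, SE 0.12, adjusted p = 0.0526). The CCNL1 gene row gave log2 changes of -0.22, -0.56 and -0.22, none past the threshold. RBM39 is a splicing factor related to the SR proteins, and RBM39-223 rose in H2023 from 18.95 ± 0.723 to 29.5 ± 0.916 CPM (log2 change 0.58, SE 0.06, adjusted p = 0.000322) and in ABC-1 from 48.1 ± 4.72 to 61.5 ± 1.24 CPM (log2 change 0.30, SE 0.06, adjusted p = 0.00981), while the gene row fell in H2023 (log2 change -0.33, SE 0.06, adjusted p = 0.00618). SRSF10-213, of an SR protein gene, rose in H460 from 28.98 ± 1.17 to 38.8 ± 1.16 CPM (log2 change 0.35, SE 0.05, adjusted p = 0.0029), where the gene row fell (log2 change -0.21, SE 0.03, adjusted p = 0.00476). None of these shifts passed adjustment. TRA2B-207, of an SR-like splicing activator, went the other way and fell in H460 from 31.2 ± 1.41 to 24.2 ± 1.73 CPM (log2 change -0.44, SE 0.07, adjusted p = 0.00474).

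In the hnRNP list, HNRNPA2B1-204 rose from 34.3, 35.1 and 33.7 to 53.3, 53.7 and 53.2 CPM in H460 (log2 change 0.56, SE 0.04, adjusted p = 0.000197). In H2023 it rose from 47.1 to 68.7 CPM (log2 change 0.49, SE 0.05, adjusted p = 0.000305) and in ABC-1 from 73.6 to 102 CPM (log2 change 0.41, SE 0.04, adjusted p = 0.000201). HNRNPH1-227 rose from 23.4 to 34.6 CPM in H460 (log2 change 0.49, SE 0.06, adjusted p = 0.00162). The other lines gave 16.5 to 24.8 CPM in H2023 (log2 change 0.53, SE 0.07, adjusted p = 0.0014) and 29.05 to 35.7 CPM in ABC-1 (log2 change 0.24, SE 0.06, adjusted p = 0.0218). The ABC-1 call of HNRNPH1-227 was lost without DMSO replicate 2, DMSO replicate 3 or CCS1477 replicate 3 (adjusted p up to 0.0661). For both rows the treated libraries lay above the DMSO libraries in every line.

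BRD2 codes for a BET bromodomain protein that binds acetylated histones. Its retained-intron row BRD2-207 rose from 55.04, 52.6 and 50.3 to 161, 142 and 167 CPM in ABC-1 (log2 change 1.51, SE 0.07, adjusted p = 9.65e-06). It rose from 69.1, 61.6 and 60.1 to 166, 129 and 152 CPM in H2023 (log2 change 1.17, SE 0.09, adjusted p = 0.000153), and from 63.5, 61.5 and 57.1 to 120.4, 127 and 131 CPM in H460 (log2 change 0.98, SE 0.05, adjusted p = 9.6e-05). BRD2-219, a protein-coding alternative, rose from 33.7 ± 1.07 to 124 ± 5.08 CPM in ABC-1 (log2 change 1.81, SE 0.05, adjusted p = 1.28e-06). In H2023 it rose from 47.3 ± 4.48 to 119 ± 10.1 CPM (log2 change 1.27, SE 0.09, adjusted p = 7.39e-05) and in H460 from 33.6 ± 0.991 to 86.1 ± 6.88 CPM (log2 change 1.28, SE 0.06, adjusted p = 6.66e-05). Both rows were thus higher in all treated libraries. The BRD2 gene row held fewer reads than these transcript rows, 21.9, 23.6 and 18.02 CPM in the DMSO libraries of ABC-1 and 39.5, 14.4 and 20.1 CPM in the treated ones, and no shift passed. In the list of p300, CBP, BET proteins and elongation factors, 7 transcript rows rose and 1 fell of 38 in H460, 5 and 1 of 32 in H2023, and 7 and 2 of 41 in ABC-1, with median log2 changes of 0.26, 0.15 and 0.18. Over all transcript rows 6.58%, 6.52% and 7.84% rose and 8.32%, 7.1% and 9.72% fell, with medians of -0.01, 0.01 and -0.01. POLR2A-209, of the largest subunit of RNA polymerase II, was among those that rose in each line, from 217 to 423 CPM in H460, from 204 to 345 CPM in H2023 and from 190.5 to 267 CPM in ABC-1 (adjusted p = 0.00747, 3.09e-05 and 0.00269).

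VMP1 codes for a membrane protein of autophagy, and the hairpin of miR-21 lies in its last exon. The single-exon row VMP1-216 runs through the last intron into that exon. In ABC-1 it rose from 23.4, 20.4 and 23.1 to 85.2, 84.7 and 87.1 CPM (log2 change 1.87, SE 0.05, adjusted p = 1.32e-06), while the gene row went from 55.2 ± 3.36 to 87.4 ± 9.13 CPM (log2 change 0.60, SE 0.08, adjusted p = 0.00101), and the shift passed (shift 1.28, SE 0.10, adjusted p = 0.0167). That shift was lost without DMSO replicate 1, DMSO replicate 2, DMSO replicate 3, CCS1477 replicate 2 or CCS1477 replicate 3 (adjusted p up to 0.0918). In H2023 the row stood at 125, 116 and 118 CPM with DMSO and 108, 121 and 121 CPM with CCS1477, with overlap (log2 change -0.09, SE 0.06, adjusted p = 0.295), and in H460 at 18.8, 18.4 and 19.8 and 21.7, 21.3 and 23.2 CPM (log2 change 0.14, SE 0.06, adjusted p = 0.134). The change differed between the lines (moderated F-test, adjusted p = 1.89e-10). The row does not separate primary miR-21 transcripts from VMP1 transcripts. SNHG14-222, of a snoRNA host gene, rose in H460 from 50.3, 48.6 and 47.6 to 104, 104 and 106 CPM (log2 change 1.02, SE 0.04, adjusted p = 2.62e-05; shift 0.79, SE 0.09, adjusted p = 0.039) and fell in ABC-1 from 134 to 118 CPM (log2 change -0.24, SE 0.04, adjusted p = 0.00298). The H460 shift was lost whichever library was left out (adjusted p up to 0.191).

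**Figure D5:**
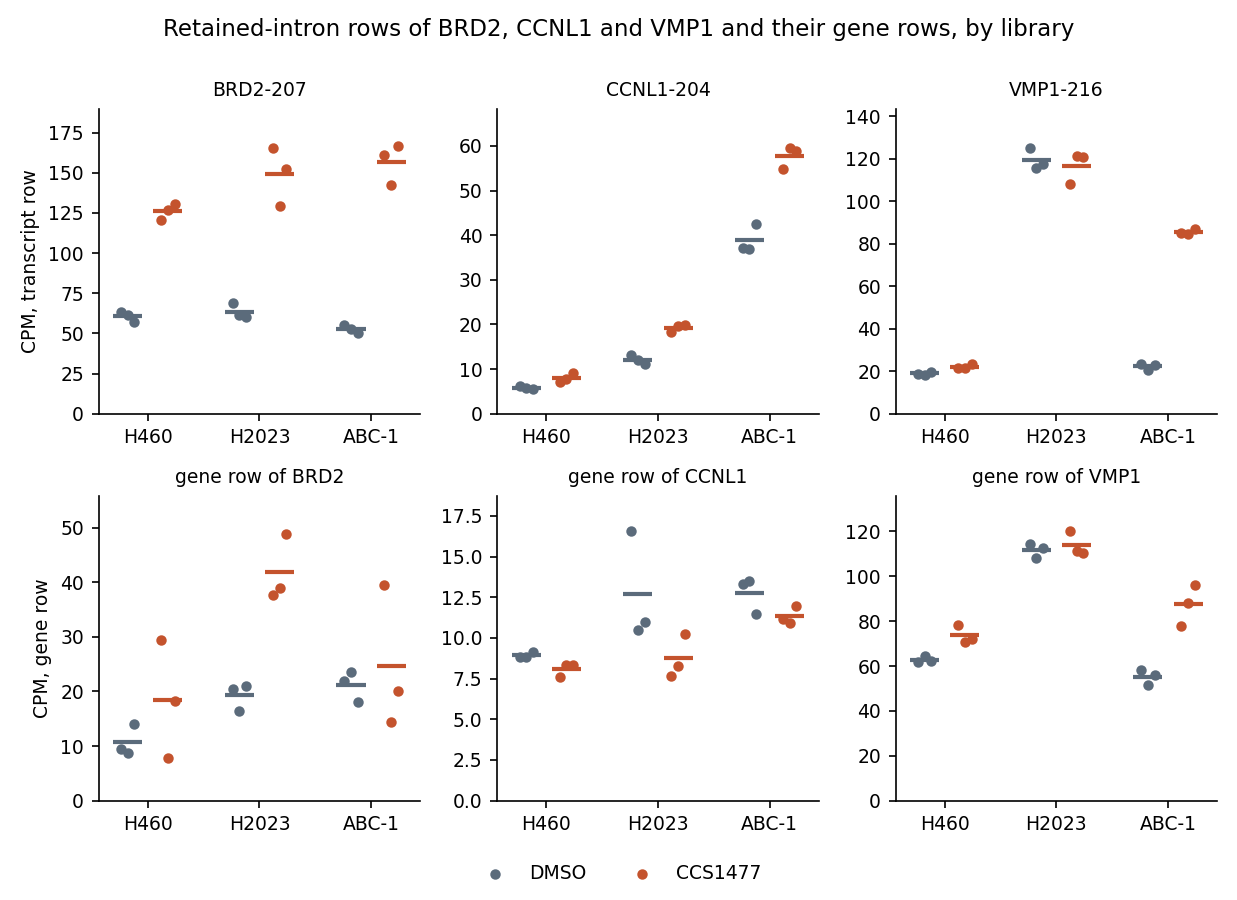
CPM of 3 retained-intron rows (BRD2-207, CCNL1-204 and VMP1-216, top) and of their gene rows (bottom) per library, by line and treatment; points are libraries and bars means of 3. VMP1-216 with CCS1477 is at 85.2, 84.7 and 87.1 CPM in ABC-1, above its DMSO libraries, and overlaps them in H2023.

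Among the other shifts past the threshold were those of single alternative transcripts that fell more than their gene row. Shifts of rows read in 1 treatment only are given further below. SPOCK1-201, of an extracellular matrix proteoglycan, fell in H460 from 99.9, 91.5 and 86.2 to 14.3, 17.2 and 21.6 CPM (log2 change -2.47, SE 0.15, adjusted p = 0.000127; shift -2.10, SE 0.20, adjusted p = 0.0261), while the gene row fell less (log2 change -0.38, SE 0.07, adjusted p = 0.00895). PLEKHA5-204 fell in H460 from 8.07 ± 0.387 to 1.06 ± 0.295 CPM (log2 change -2.88, SE 0.22, adjusted p = 0.000274; shift -2.56, SE 0.25, adjusted p = 0.0261). PLEKHA5-207 fell there from 17.5 ± 1.44 to 3.20 ± 0.563 CPM (log2 change -2.49, SE 0.15, adjusted p = 0.00011; shift -2.08, SE 0.17, adjusted p = 0.0261). IDH1-202, of cytosolic isocitrate dehydrogenase, fell in H460 from 8.43 ± 0.686 to 1.72 ± 0.371 CPM (log2 change -2.29, SE 0.17, adjusted p = 0.000266; shift -2.05, SE 0.20, adjusted p = 0.0261). PGD-203, of the pentose phosphate pathway and an NRF2 target gene, fell in H2023 from 14.2 ± 1.32 to 4.15 ± 0.291 CPM (log2 change -1.76, SE 0.11, adjusted p = 5.28e-05; shift -1.65, SE 0.14, adjusted p = 0.0283), where its gene row fell less (log2 change -0.17, SE 0.02, adjusted p = 0.000506). PLS3-206, of the actin-bundling plastin 3, fell in ABC-1 from 9.34 ± 1.15 to 1.77 ± 0.267 CPM (log2 change -2.30, SE 0.17, adjusted p = 6.51e-05; shift -2.01, SE 0.20, adjusted p = 0.034). ATP9B-222 fell in H2023 from 22.1 ± 1.26 to 2.58 ± 0.881 CPM (log2 change -3.08, SE 0.23, adjusted p = 0.000103; shift -2.99, SE 0.28, adjusted p = 0.0325). In each of these rows the groups did not overlap. The shifts of SPOCK1-201, PLEKHA5-204, PGD-203, PLS3-206 and ATP9B-222 were lost whichever library was left out (adjusted p up to 0.143, 0.143, 0.162, 0.149 and 0.148), and those of PLEKHA5-207 and IDH1-202 in all fits but that without CCS1477 replicate 1 (up to 0.136 and 0.148).

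In other genes the alternative transcript did not follow its gene row. EIF4A2 codes for a translation initiation helicase, and its gene row rose in ABC-1 (log2 change 1.14, SE 0.07, adjusted p = 3.21e-05) and H2023 (log2 change 1.70, SE 0.17, adjusted p = 0.000327). EIF4A2-204 fell in ABC-1 from 5.71 ± 0.338 to 3.08 ± 0.214 CPM (log2 change -0.89, SE 0.13, adjusted p = 0.00183; shift -2.08, SE 0.18, adjusted p = 0.0184), and EIF4A2-223 was at 10.2 to 9.59 CPM in H2023 (log2 change -0.14, SE 0.09, adjusted p = 0.313; shift -1.86, SE 0.17, adjusted p = 0.0296). In H460, with 1 library left out, the shift of EIF4A2-223 ran from -2.60 to 2.88 and its log2 change from -0.30 to -0.07. The shift in that line thus turned on single libraries. TFPI-211, of the tissue factor pathway inhibitor gene, stood at 2.99 to 2.35 CPM in H460 (log2 change -0.41, SE 0.18, adjusted p = 0.136; shift 1.99, SE 0.19, adjusted p = 0.0261) while the gene row fell (log2 change -2.41, SE 0.07, adjusted p = 1.15e-05). VSIG10L-202 stood at 11.5 to 12.7 CPM in H2023 (log2 change 0.09, SE 0.09, adjusted p = 0.519; shift 2.27, SE 0.17, adjusted p = 0.0231) while the gene row fell (log2 change -2.13, SE 0.11, adjusted p = 2.8e-05). DCXR-210, of a carbonyl reductase, stood at 7.00 to 5.49 CPM in H460 (log2 change -0.46, SE 0.23, adjusted p = 0.187; shift -2.24, SE 0.20, adjusted p = 0.0261) while the gene row rose (log2 change 1.76, SE 0.07, adjusted p = 3.59e-05). SRRM2-211, of a spliceosome scaffold protein, fell in H2023 from 19.3 ± 1.23 to 9.39 ± 1.43 CPM (log2 change -1.08, SE 0.12, adjusted p = 0.000542; shift -1.47, SE 0.15, adjusted p = 0.0424) while the gene row rose (log2 change 0.38, SE 0.04, adjusted p = 0.000821). The shifts of EIF4A2-223, TFPI-211 and SRRM2-211 were lost whichever library was left out (adjusted p up to 0.162, 0.139 and 0.183). Those of EIF4A2-204, VSIG10L-202 and DCXR-210 were lost in all fits but that without DMSO replicate 3, DMSO replicate 1 and CCS1477 replicate 1, in that order (up to 0.0946, 0.138 and 0.139).

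Of 8665 transcript rows tested in all 3 lines, 166 rose and 89 fell in every line (2.94%), against 1408 and 1204 of 11757 gene rows (22.2%), and 93 were called in opposite directions in at least 2 lines. Without H460 CCS1477 replicate 1, 140 rose and 90 fell in every line. Beside the histone rows, the largest rises common to the lines were of retained-intron rows of DCXR and PNPLA2, the latter the gene of adipose triglyceride lipase, and of RTL5-201, of a retrotransposon-derived gene. PNPLA2-202 rose from 0.771 to 2.53 CPM in H460, 1.20 to 4.67 CPM in H2023 and 1.26 to 5.30 CPM in ABC-1 (log2 changes 1.53, 1.77 and 1.83), with its gene row (1.91, 1.82 and 1.62). DCXR-213 rose from 2.78 to 9.03 CPM, 1.22 to 3.89 CPM and 0.745 to 4.16 CPM, again with its gene row, and the ABC-1 call was lost without DMSO replicate 1, CCS1477 replicate 1, CCS1477 replicate 2 or CCS1477 replicate 3 (adjusted p up to 0.092). RTL5-201 rose from 3.39 to 11.3 CPM, 1.81 to 6.22 CPM and 0.553 to 4.48 CPM, with 1 of 3 DMSO libraries at 0 in ABC-1. In ABC-1 RTL5-201 passed the filter only through CCS1477 libraries, so it could be counted there as a rise but not as a fall. Rows that passed through 1 treatment only are thus among the rows counted as changed in every line.

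Among rows that fell in every line, AKR1C2-209 belongs to an aldo-keto reductase gene that NRF2 activates. It fell from 159.8, 177 and 188 to 62.9, 59.6 and 61.1 CPM in H460 (log2 change -1.58, SE 0.07, adjusted p = 3.62e-05). It fell from 1136, 1073 and 1134 to 432, 442 and 432 CPM in H2023 (log2 change -1.41, SE 0.03, adjusted p = 9.52e-07). It fell from 5.29, 3.45 and 3.73 to 0.458, 0.237 and 0.501 CPM in ABC-1 (log2 change -2.79, SE 0.30, adjusted p = 0.000373). The log2 changes of its gene row were -1.84, -1.37 and -3.10. CAV1-206, of caveolin 1, fell from 4.55 to 0.600 CPM, 4.82 to 0.719 CPM and 2.67 to 0.534 CPM, and NOTCH3-206, of a Notch receptor, from 33.4 to 14.1 CPM, 35.7 to 13.2 CPM and 14.2 to 6.11 CPM. XBP1-206, of the unfolded protein response factor XBP1, fell from 2.51 to 1.05 CPM, 3.12 to 1.06 CPM and 7.79 to 3.10 CPM, and its H460 call was lost without DMSO replicate 1, DMSO replicate 3, CCS1477 replicate 1 or CCS1477 replicate 3 (adjusted p up to 0.091). The gene rows of CAV1, NOTCH3 and XBP1 fell in every line too. HNRNPUL1-219 fell from 4.70 to 1.64 CPM, 5.60 to 1.11 CPM and 6.88 to 1.20 CPM, with gene row changes of -0.28, -0.33 and -0.88. TBL1X-206 fell from 60.2 to 22.2 CPM, 49.3 to 14.95 CPM and 45.2 to 11.9 CPM, with no call of the gene row. TBL1X codes for a subunit of the NCoR/SMRT corepressor. None of these shifts passed (adjusted p from 0.0642 upward). AKR1C2-209 in ABC-1 and CAV1-206 in H460 and ABC-1 passed the filter only through DMSO libraries. There they could be counted as falls but not as rises.

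In the list of NRF2 and its targets (40 genes), 8 transcript rows rose and 24 fell of 78 in H460, 6 rose and 30 fell of 79 in H2023, and 8 rose and 1 fell of 28 in ABC-1, with median log2 changes of -0.40, -0.41 and 0.54. Over all transcript rows 6.58%, 6.52% and 7.84% rose and 8.32%, 7.1% and 9.72% fell. The tested rows belong to 30, 32 and 13 genes, so the lines do not compare the same members. AKR1C1-205 fell from 348 ± 1.60 to 159.7 ± 8.08 CPM in H460 (log2 change -1.20, SE 0.04, adjusted p = 2.67e-05) and from 479 ± 5.19 to 369 ± 21.3 CPM in H2023 (log2 change -0.43, SE 0.05, adjusted p = 0.000486). ALDH3A1-207, of an aldehyde dehydrogenase, fell from 136 ± 2.55 to 67.4 ± 5.39 CPM in H460 and 135 ± 2.31 to 42.9 ± 4.82 CPM in H2023 (log2 changes -1.09 and -1.70). FTH1-206, of the ferritin heavy chain, rose in ABC-1 from 93.96 ± 14.1 to 205 ± 5.59 CPM (log2 change 1.08, SE 0.11, adjusted p = 0.000364), with overlapping groups in H460 and H2023. TXNRD1-213, of thioredoxin reductase, rose in every line, from 7.51 to 15.7 CPM, 7.27 to 20.8 CPM and 3.08 to 6.85 CPM. SQSTM1-206, of the autophagy receptor p62, rose in H2023 from 28.8 ± 2.81 to 83.03 ± 2.78 CPM (log2 change 1.47, SE 0.08, adjusted p = 2.75e-05) and in H460 from 15.7 ± 1.49 to 32.5 ± 9.80 CPM (log2 change 0.94, SE 0.20, adjusted p = 0.016). The H460 call of SQSTM1-206 was lost without DMSO replicate 1 or DMSO replicate 3 (adjusted p up to 0.0545). In the lines where these rows passed, their gene rows changed in the same direction. Of the list's tested shifts 0 of 78, 1 of 79 and 0 of 28 passed.

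The remaining lists showed small and mixed counts, to be read against 6.58%, 6.52% and 7.84% of all transcript rows that rose and 8.32%, 7.1% and 9.72% that fell. In the NMD list, 6 transcript rows rose and 2 fell of 37 in H460, 5 and 4 of 41 in H2023, and 0 and 3 of 40 in ABC-1. RNPS1-210, of a component of the exon junction complex, fell from 4.93 to 2.14 CPM, 5.55 to 2.17 CPM and 2.49 to 1.31 CPM (log2 changes -1.24, -1.33 and -0.87), and the ABC-1 call was lost without DMSO replicate 1, DMSO replicate 3, CCS1477 replicate 2 or CCS1477 replicate 3 (adjusted p up to 0.06). Core spliceosome rows gave 4 up and 2 down of 78, 4 and 2 of 71, and 2 and 6 of 83. Rows of genes known for epithelial and mesenchymal isoforms gave 3 and 1 of 30, 2 and 5 of 34, and 4 and 3 of 43. Within them TPM1-224, of tropomyosin 1, fell in H2023 from 49.02 to 27.6 CPM and rose from 108 to 146 CPM in ABC-1 (adjusted p = 0.000737 and 0.000823), and CLSTN1-203 rose in all 3 lines (log2 changes 0.60, 0.42 and 0.41). Rows of 3′ processing genes gave 1 and 4 of 47, 5 and 2 of 42, and 1 and 3 of 45. There CSTF1-206, of a cleavage stimulation factor, fell in H2023 from 18.3 to 12.9 CPM (log2 change -0.54, SE 0.09, adjusted p = 0.00321) and in H460 from 20.2 to 17.3 CPM (log2 change -0.29, SE 0.09, adjusted p = 0.0432), the latter lost without DMSO replicate 1, DMSO replicate 3, CCS1477 replicate 1 or CCS1477 replicate 2 (adjusted p up to 0.125).

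Noncoding rows were dominated by a few abundant RNAs. Long noncoding rows took up 3.66% ± 0.023 of the reads of annotated transcript rows with DMSO and 4.65% ± 0.98 with CCS1477 in H460, 5.08% ± 0.13 and 5.73% ± 0.041 in H2023, and 7.66% ± 0.24 and 10.1% ± 0.15 in ABC-1 (exact permutation p = 0.1 each). The treated H460 libraries were at 5.78, 4.03 and 4.14%, the first of them the library that stood apart. MALAT1, an abundant nuclear RNA found near splicing speckles, made up 1.18%, 1.74% and 4.25% of those reads with DMSO and 1.68%, 2.36% and 7.15% with CCS1477. Without it the other long noncoding rows were at 2.51% and 3.02% in H460 and 3.40% and 3.44% in H2023, with overlap, and at 3.56% and 3.19% in ABC-1. MALAT1-202 rose from 841 to 1239 CPM in H460 (log2 change 0.49, SE 0.05, adjusted p = 0.000705). In H2023 it rose from 5.77 to 12.2 CPM (log2 change 0.98, SE 0.16, adjusted p = 0.00337) and in ABC-1 from 10.3 to 24.9 CPM (log2 change 1.19, SE 0.13, adjusted p = 0.000479). MALAT1-212 rose in H2023 from 809, 743 and 817 to 979, 934 and 1005 CPM (log2 change 0.25, SE 0.04, adjusted p = 0.00379) and in ABC-1 from 1920.2, 1699.8 and 1858 to 3178, 3239 and 3343 CPM (log2 change 0.78, SE 0.04, adjusted p = 9.09e-06). The MALAT1 gene row did not rise with these rows in ABC-1. With 1 library left out, the shift there was 3.19 to 6.26 for MALAT1-212 and 3.61 to 6.60 for MALAT1-202. For MALAT1-212 in H2023 it was 0.613 to 1.13, and for MALAT1-202 in H460 0.152 to 0.650. None of these shifts passed in any such fit, and the part of read assignment was not tested. MIR663AHG-223 stood at 362, 475 and 453 CPM with DMSO and 1830.2, 649 and 575 CPM with CCS1477 in H460 (log2 change 0.97, SE 0.43, adjusted p = 0.143), the highest value being in the library with few mitochondrial reads. H19-203, of an imprinted noncoding RNA, fell in ABC-1 from 196, 192 and 237 to 70.1, 60.5 and 65.7 CPM (log2 change -1.73, SE 0.09, adjusted p = 1.32e-05). The MALAT1 and MIR663AHG rows were chosen after their values were seen.

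In the list of snoRNA host genes and abundant noncoding RNA genes, 11 transcript rows rose and 13 fell of 88 in H460, 11 and 6 of 72 in H2023, and 8 and 12 of 86 in ABC-1, beside 6.58%, 6.52% and 7.84% of all transcript rows that rose and 8.32%, 7.1% and 9.72% that fell.

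A small set of rows was read in 1 treatment only. With no read in any of the 3 libraries of one group and at least 30 reads in every library of the other, 35 called rows in H460 were read only with CCS1477 and 17 only with DMSO. These were 10 and 15 in H2023, and 20 and 14 in ABC-1, against 0, 1 and 1 gene rows of either kind. SMG1-211, of the kinase that starts NMD, had no read in the DMSO libraries of H460 and stood at 12.8, 13.8 and 17.3 CPM with CCS1477, at least 401-fold higher against a floor of 3 reads over the group. In H2023 the same row was at 0, 10.95 and 0 CPM with DMSO and 18.8, 0 and 23.6 CPM with CCS1477, so that it was also lacking in libraries of both groups. TPT1-210 was at 0 with DMSO and 47.2, 10.5 and 18.2 CPM with CCS1477 in H460 (at least 710.0-fold higher), and at 0, 10.6 and 18.00 and 0, 26.96 and 3.88 CPM in H2023, where the groups overlapped. SEC16A-201 was at least 246-fold and GLG1-213 at least 139-fold higher in H460. WAC-221 was at least 251-fold and MPRIP-201 at least 179-fold higher in H2023, and CIZ1-208 at least 105-fold higher in ABC-1. SIPA1L1-207 in ABC-1, at 10.6, 10.7 and 9.18 CPM with DMSO, was at least 171-fold lower, and BEGAIN-203 in H460 at least 333-fold lower. With 1 library left out, shifts in these lines were 9.25 to 9.34 (SMG1-211), 8.96 to 9.18 (WAC-221) and 8.62 to 8.76 (MPRIP-201). They were 8.09 to 8.13 for CIZ1-208 and -7.95 to -7.89 for SIPA1L1-207. These shifts passed in each such fit that tested the row, which were 3 fits per row. The filter kept the row only in fits without a library of the group that had no read. No library that held the reads was left out, so these fits do not show whether the shifts rest on 1 such library. The shifts of TPT1-210, SEC16A-201, GLG1-213 and BEGAIN-203 in H460 passed in none of the fits that tested them. In other lines several of these rows switched between 0 and several CPM within a group: WAC-221 was at 24.3, 0 and 21.1 CPM in the DMSO libraries of ABC-1. The part of read assignment in these values was not tested.

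The change differed between the lines for 1358 of 17692 transcript rows (7.68%, moderated F-test over 18 libraries), against 47.9% of gene rows and 25.1% of all rows. After VMP1-216, the rows with the smallest p were MYO10-211, TTL-202, HELLS-203, QKI-204 and GLG1-213. MYO10-211, of an unconventional myosin, rose in ABC-1 from 10.4, 9.90 and 10.9 to 32.2, 32.5 and 31.95 CPM (log2 change 1.55, SE 0.06, adjusted p = 2.98e-06), fell in H2023 from 60.03 ± 0.991 to 39.02 ± 2.70 CPM (log2 change -0.67, SE 0.06, adjusted p = 0.000181) and was at 15.8 to 14.2 CPM in H460 (log2 change -0.22, SE 0.10, adjusted p = 0.148). TTL-202, of tubulin tyrosine ligase, rose in ABC-1 from 15.4 ± 0.998 to 39.1 ± 2.06 CPM (log2 change 1.27, SE 0.07, adjusted p = 1.39e-05) and less in H2023 (log2 change 0.24). HELLS-203, of a chromatin remodeller linked to DNA methylation, fell in ABC-1 from 92.00 ± 2.45 to 40.4 ± 0.882 CPM (log2 change -1.24, SE 0.04, adjusted p = 2.1e-06), with log2 changes of -0.96 in H2023 and -0.33 in H460. QKI-204, of an RNA-binding regulator of splicing, fell in ABC-1 from 136 ± 1.64 to 80.1 ± 2.77 CPM (log2 change -0.82, SE 0.04, adjusted p = 1.03e-05), and its groups overlapped in the other lines. The gene rows of MYO10, TTL, HELLS and QKI moved in the same direction in ABC-1.

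For the genes closest to the treatment, few transcript rows were deep enough to test. NFE2L2-210, a retained-intron row of the NRF2 gene, was at 2.45 to 1.49 CPM in H2023 (log2 change -1.15, SE 0.96, adjusted p = 0.415) and 2.11 to 1.32 CPM in ABC-1 (log2 change -0.82, SE 1.02, adjusted p = 0.581). EP300-209, of the p300 gene, was at 1.82 to 1.32 CPM in ABC-1 (log2 change -0.46, SE 0.28, adjusted p = 0.255). CREBBP-203, of the CBP gene, was at 6.30 to 7.51 CPM in H460, 10.2 to 10.4 CPM in H2023 and 7.78 to 10.6 CPM in ABC-1 (adjusted p from 0.0791 upward). MYC-204 was at 1.72 to 1.03 CPM in H460 (log2 change -0.80, SE 0.31, adjusted p = 0.106). With KEAP1-208, KEAP1-210, CREBBP-206 and CREBBP-212, none of the 14 tests of these rows passed the threshold, which at about 1 to 10 CPM does not show that they did not change.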

How the data were processed

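Total RNA from 18 libraries of H460, H2023 and ABC-1 cells was read with a directional kit in paired reads, per the labels' protocols. The authors deposited log2 values, 1 table per line, and the submitters' processing notes name the build GRCh38. The aligner, the counting tool, its use of strand and the rule by which reads were given to transcript rows are each not given in the sources used here. The deposited log2 values equal log2(reads × a factor of the library + 4), so reads were recovered: all values of up to 1000 reads came out whole within 0.1. CPM are recovered reads times 1000000 over the reads of all rows. Recovered reads were 14483979 to 33568180 per library, so that 1 CPM stood for 14.5 to 33.6 reads.

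Samples were grouped by line and treatment from the labels. The transcript rows and gene lists were chosen with earlier results of these data known. Rows that reached 1 CPM in 3 or more of a line's 6 libraries were tested with limma 3.58.1 in R 4.3.3 (limma-trend on the deposited log2 values, moderated F-test for the difference between lines), with Benjamini-Hochberg adjustment over all gene and transcript rows and a threshold of 0.05. The unit was not known beforehand, and the test planned for log2 values was the one used. Shifts used log2 of transcript reads over gene-row reads with 0.5 added to each. Shares of reads were compared by the exact two-sided permutation test, whose smallest p is 0.1 at 3 against 3. A group with no read was given a floor of 3 reads over its libraries. Transcript types, introns and sequences came from GENCODE 29, miRNA from RefSeq. Tables and figures were made with Python 3.11.15, pandas 2.3.3, numpy 2.4.6 and matplotlib 3.10.9. The scripts were tested on simulated data.

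Rows were named by rule: in each line the 5 highest and 5 lowest changes and shifts past the threshold with groups that do not overlap and at least 2 CPM in the higher group (5 CPM of the gene row for shifts), the 6 rows that rose and the 6 that fell most in all lines, the 3 highest and lowest retained-intron rows, the 6 rows that differed most between lines, up to 4 rows per list and line, and the rows of NFE2L2, KEAP1, EP300, CREBBP and MYC. Of these only those that the text turns on are printed, and 1 row is not reported here. The histone rows beyond this rule were chosen after their values were seen. Alternatives were limma-voom, other scalings, constants, filters and thresholds, other forms of the shift, a block of replicate numbers, and each library left out. With a library left out, 1 CPM in 3 libraries was still required. The splits of rises and falls by type and list under library totals and left-out libraries were added after the data were seen.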

Additional observations from a re-analysis of the deposited data

Results flagged for a closer look

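Of 68 of the transcripts named, 29 had a change with CCS1477 that differed between the 3 lines. Rows of NFE2L2, KEAP1, EP300, CREBBP and MYC were not among these 68. Over all transcript rows tested, the share that differed was 7.68%. The named rows were chosen from these same data, some of them for differing most between lines. Their count was thus raised by the choice and cannot be weighed against that share. The test was the moderated F-test over all rows, at an adjusted p of 0.05. Each adjusted p of that test follows the transcript's name in parentheses. Among histone rows these were HIST1H2AC-201 (1.04e-06), HIST1H4H-202 (2.81e-05), HIST1H4H-203 (0.000102), HIST2H4A-202 (0.012), HIST2H4A-203 (0.000348) and HIST2H4B-202 (0.0214). HIST1H2AC-201 had log2 changes of 1.27 in H460, 1.27 in H2023, 2.60 in ABC-1, and HIST2H4A-203 of 2.57 in H460, 2.47 in H2023, 4.52 in ABC-1, the highest value in ABC-1 for both. Among rows of splicing-factor genes they were HNRNPH1-227 (0.0421), QKI-204 (1.73e-07), RBM39-223 (0.00227) and SRSF10-213 (0.00117). SRSF10-213 had changes of 0.35 in H460, 0.06 in H2023, -0.06 in ABC-1, and RBM39-223 of 0.13 in H460, 0.58 in H2023, 0.30 in ABC-1. Among NRF2 target and related metabolic genes they were AKR1C2-209 (0.000136), FTH1-206 (0.00126), IDH1-202 (0.0175) and PGD-203 (0.00892). Rows that were at 0 in some group or library were GLG1-213 (2.97e-07), SIPA1L1-207 (0.0108), TPT1-210 (0.0433) and WAC-221 (0.039). The remaining ones were BRD2-207 (0.0104), BRD2-219 (0.00113), CSTF1-206 (0.0274), HELLS-203 (3.01e-08), MALAT1-202 (0.0255), MYO10-211 (1.11e-09), PLEKHA5-204 (5.61e-05), TFPI-211 (0.0398), TTL-202 (2.25e-09), VMP1-216 (1.89e-10) and VSIG10L-202 (3.25e-05). BRD2-219 had changes of 1.28 in H460, 1.27 in H2023, 1.81 in ABC-1.

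The share of annotated transcript reads on retained-intron rows went up with CCS1477 by 0.963 percentage points in H460 and 1.46 in H2023 and changed by -0.665 in ABC-1, with every treated library above the DMSO libraries in the first 2 lines and below them in ABC-1. The difference between the lines was not tested.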

How the results depend on the processing

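The counts of called transcript rows (2047, 1887 and 2724 in H460, H2023 and ABC-1, in this order throughout) stayed within 1.5 times under limma-voom, other scalings, constants and filters, and the replicate block. They moved to 556, 429 and 1082 with transcript rows fitted alone, and to 884, 794 and 1347 with a log2 change of at least 1. With 1 library left out they were 1184 to 1752, 1313 to 1424 and 1884 to 2029. The shift counts (28, 14 and 27) moved more. They were 22 in H2023 with 2 reads added, 27 and 43 in H2023 and ABC-1 with deposited values, 47, 27 and 42 with no filter, 75, 61 and 72 with 1 CPM in all 6 libraries, and 51, 39 and 43 with a transcript mean of 5 CPM. With 1 library left out they were 0 to 4, 0 to 12 and 6 to 20, beside 975 to 1426 at an unadjusted p under 0.05. The cause of the moves was not tested.

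The labels do not say that replicate numbers pair the samples. Same-numbered libraries correlated at -0.188 to 0.121 and differently numbered ones at -0.1025 to 0.107. In H2023 gene rows these were 0.040 to 0.110 and -0.069 to 0.019, and in H2023 transcript rows -0.125 to -0.046 and -0.047 to 0.092. Whether the numbers pair libraries was not tested. With the replicate block limma gave 1392, 1488 and 2146 calls and 0, 0 and 3 shifts (1299, 1073 and 1083 at an unadjusted p under 0.05). The count of rows that differ between lines, 1358, was 1014 with the block and 1155 to 1297 with 1 library left out.

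The difference in the retained-intron share (0.963, 1.46 and -0.665) became 1.58, 1.24 and 0.615 without the 20 most read rows and 0.124, 0.159 and 0.0708 as a share of all reads, turning in ABC-1 both times. Left-out libraries gave 0.835 to 1.12, 1.16 to 1.61 and -0.931 to -0.524. The difference in the share of all reads on transcript rows (0.129, 0.215 and 0.470) was 0.0382, 0.199 and 0.219 without those 20 rows, and 0.0644 to 0.195, 0.167 to 0.262 and 0.356 to 0.546 with 1 library left out.

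Of 176 named changes, 130 passed, and of 165 named shifts, 34. Signs turned under some setting for 12 changes and 22 shifts by no more than the standard error of the reported value, and by more than it for the following, none past the threshold in either fit. With library totals the QKI-204 change in H460 was 0.035. With the other transcript rows added to the gene row, shifts were 0.50 (DCXR-213, H460), -0.11 (CSTF1-206), 0.087 (DCXR-213), 0.11 (HNRNPA2B1-204) and -0.14 (MALAT1-212) in H2023, and -0.038 (TRA2B-207, ABC-1). With 1 H460 library left out, FTH1-206 had a change of -0.077 to 0.28 and a shift of -0.067 to 0.42 (both lowest without CCS1477 replicate 1), and BRD2-207 a shift of -0.091 (without CCS1477 replicate 2) to 0.91. In H2023 without DMSO replicate 1, changes were -0.19 (DCXR-210) and -0.13 (MIR663AHG-223) and the PNPLA2-202 shift -0.20 (up to 0.37 without another library). The HIST1H2BN-202 shift was -0.51 to 1.08 (highest without CCS1477 replicate 1), and that of ALDH3A1-207 -0.11 (without CCS1477 replicate 3) to 0.10. In ABC-1, WAC-221 had a change of -0.79 to 2.50 and a shift of -0.70 to 4.02 (lowest without DMSO replicate 2), RTL5-201 a shift of -2.42 (without DMSO replicate 3) to 2.42, and NOTCH3-206 a shift of -0.45 to 0.20 (highest without CCS1477 replicate 2).

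Depth limits these rows: most tested transcript rows had fewer than 100 reads per library, and 3 libraries per group bound the shares' exact test at 0.1.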
